A study of Mus musculus with 24 samples.

Results

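The keratin-associated protein genes (Krtap genes) code for small proteins of the hair shaft. They were taken by name: every protein-coding gene of the deposited table whose symbol begins with Krtap, which gave 54 of 21949 protein-coding genes and of 45777 genes in all. The naming rule uses no expression value, but the family was chosen with earlier results of these data known. The study sequenced polyA RNA of 2 tissues, skin and dorsal root ganglia (DRG, which house the cell bodies of sensory neurons), with 6 control and 6 model libraries for each. The mice were 6-week-old BALB/c females. The model mice had received LL37, a cathelicidin antimicrobial peptide that provokes a rosacea-like inflammation of mouse skin, into the dermis at 320 μM in 40 μL, 2 times a day for 2 days. The series text also names oral gabapentin at 100 mg/kg from day 3 and collection of DRG on day 4, but no label assigns gabapentin to a library. The sources used here do not give the injection of the control mice or the time at which skin was taken. No label says whether the libraries of a group came from separate animals, so the p-values measure the spread between these libraries only.

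Keratin-associated proteins form the matrix in which the keratin filaments of the hair cortex and cuticle are embedded, and disulfide bonds tie that matrix together. Their genes are switched on late in the differentiation of hair shaft cells, in the upper bulb of growing follicles, after the hair keratins of the same cells. The family is divided by protein composition into high sulfur, ultrahigh sulfur and high glycine-tyrosine proteins. In skin, RNA of these genes therefore marks the part of the follicle that is building hair shaft.

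All 54 genes had a single exon. On the RefSeq annotation of GRCm38.p6 they lay in 5 places: 23 within 960.5 kb of chromosome 16 (chr16:88610709-89571183), 22 within 443.9 kb of chromosome 11 (chr11:99550132-99993994), 5 on chromosome 7, 3 on chromosome 10, and Krtap28-13 alone on chromosome 1. Proteins with more than 30% cysteine were counted as ultrahigh sulfur, of the others those with more than 35% glycine plus tyrosine as high glycine-tyrosine, and the rest as high sulfur. This gave 20 ultrahigh sulfur, 14 high glycine-tyrosine and 20 high sulfur members. The 14 high glycine-tyrosine members were all on chromosome 16 and were short, at 58 to 155 residues. The ultrahigh sulfur members were on chromosomes 1, 7, 10 and 11, with 30.3% to 42.8% cysteine. Krtap7-1, with 29.9% glycine plus tyrosine, fell into the high sulfur class by these limits, although its family is usually placed with the glycine-tyrosine proteins.

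A promoter window from RefSeq (GRCm38.p6) was matched to 49 of the 54 members. The letters TATAAA, the core of the TATA box, stood on the gene strand 20 to 40 bases before the start in 29 of these 49 windows (59.2%), against 1.99% of all 32851 windows of the same length. A match is a description of the letters and not a measured binding site. Krtap8-1 had the family's highest level in skin, Krtap4-9 its smallest p-value and Krtap20-2 its only higher mean in the model. Krtap31-1, Krtap31-2 and Krtap9-5 are a neighbouring trio with their own profile in the controls. For these 6 members, on which the results turn, the 110 bases before the start are shown. They read 5′ to 3′ on the gene strand, with TATAAA in capitals. Their positions are chr16:89487953-89488062 (minus strand) for Krtap8-1, chr11:99785090-99785199 (plus) for Krtap4-9, chr16:89205751-89205860 (plus) for Krtap20-2, chr11:99907810-99907919 (plus) for Krtap31-1, chr11:99936181-99936290 (plus) for Krtap31-2 and chr11:99948314-99948423 (plus) for Krtap9-5.
Krtap8-1: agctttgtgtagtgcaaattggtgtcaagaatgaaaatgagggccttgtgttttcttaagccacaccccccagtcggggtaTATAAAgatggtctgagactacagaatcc
Krtap4-9: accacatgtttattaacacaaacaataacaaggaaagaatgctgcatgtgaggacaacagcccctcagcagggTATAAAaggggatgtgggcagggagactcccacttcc
Krtap20-2: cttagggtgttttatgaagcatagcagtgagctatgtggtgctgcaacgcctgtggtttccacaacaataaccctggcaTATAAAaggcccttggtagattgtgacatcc
Krtap31-1: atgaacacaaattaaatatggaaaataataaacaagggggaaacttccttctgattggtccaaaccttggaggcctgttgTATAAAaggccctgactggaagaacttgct
Krtap31-2: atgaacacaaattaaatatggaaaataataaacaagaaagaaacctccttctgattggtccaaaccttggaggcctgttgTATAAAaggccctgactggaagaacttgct
Krtap9-5: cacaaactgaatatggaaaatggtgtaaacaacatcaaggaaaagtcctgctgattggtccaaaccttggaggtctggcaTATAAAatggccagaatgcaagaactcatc
The windows of Krtap31-1 and Krtap31-2 had the same letter at 106 of 110 positions, compared without gaps. Krtap9-5, the next gene along the chromosome, matched Krtap31-1 at 69 and Krtap31-2 at 70 positions. The other 12 pairs among these 6 windows matched at 31 to 42 positions.

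The skin libraries held 45238735 to 64547448 counts in the controls and 46549562 to 63531350 in the model. One library stood apart. Skin control 2 had 520 CPM (counts per 1000000 counts of the library) on the 54 genes together. The other 5 controls held between 11158 and 14586 CPM. Control 2 was the lowest of the 12 skin libraries for 50 of the 52 members tested, ties included. Among the controls the same library had the highest summed level of the 10 interfollicular epidermis genes (30899 CPM, against 12035 to 19740 in the other 5 controls) and of the 8 skeletal muscle genes (11209 CPM, against 2989 to 6425). The part of these tissues in its low Krtap level was not tested. Counts of called genes are therefore given with and without control 2.

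Krtap RNA made up a smaller share of the counts in model skin than in 5 of the 6 controls. The share was 0.052% in control 2 and 1.12% to 1.46% in the other controls, with a median of 1.23% over all 6. In the model it was 0.118% at the lowest (model 4), 0.454% at the median and 0.893% at the highest (model 2). The 5 controls other than control 2 thus lay above all 6 model libraries, and control 2 lay below all of them. The means were 1.07% ± 0.516 (SD, n = 6) in the controls and 0.471% ± 0.270 (SD, n = 6) in the model, and 1.28% ± 0.146 (SD, n = 5) in the controls without control 2. On the deposited TPM, which correct for gene length, the family took 3.16% ± 1.51 (SD, n = 6) of control skin and 1.41% ± 0.794 (SD, n = 6) of model skin. In whole skin, fewer hair-forming cells and less of these RNAs per cell cannot be told apart.

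**Figure D1:**
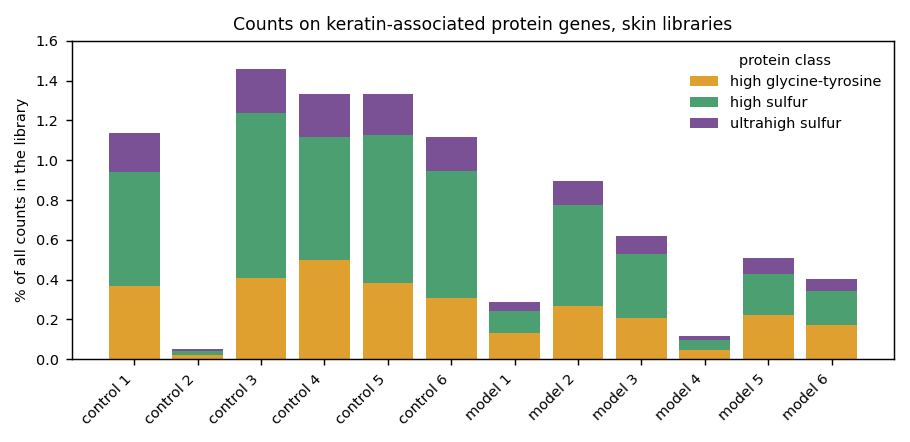
Percent of all counts in each of the 12 skin libraries that fell on the 54 Krtap genes, stacked by protein class (colours). Control 2 had 0.052% and the other controls 1.12% to 1.46%, and the model libraries ran from 0.118% in model 4 to 0.893% in model 2.

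Of the 54 members, 52 passed the filter on low counts in skin, and Krtap13 and Krtap5-3 did not. Of these 52, 51 had a lower mean in the model and 1, Krtap20-2, had a higher mean, with a median log2 fold change of -1.30 (2.46-fold lower), beside -0.02 over all genes tested. With all 12 libraries no member passed the test (edgeR quasi-likelihood, Benjamini-Hochberg adjusted over all genes tested, 0.05 as the threshold), while 5.82% of all genes tested were called lower. Adjusted p-values ran from 0.0621 for Krtap4-9 to 0.736 for Krtap19-1. At an unadjusted p under 0.05 there were 9 members, all lower, of 52 (background, lower: 15.1%). DESeq2 called 5 members lower (background 7.11%): Krtap4-7, Krtap4-8, Krtap4-9, Krtap4-16 and Krtap17-1. A fit over all 24 libraries of both tissues called 4 members lower, Krtap3-1, Krtap4-9, Krtap7-1 and Krtap8-1, of 52, where 15.5% of all genes were called lower.

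Without control 2, 29 of 52 members fell in the model and 23 did not pass, with a median log2 fold change of -1.55 (2.94-fold lower). The background was also higher, at 12.8% of all genes called lower. Control 2 was left out because it was low for these same genes, which favours lower calls among the members. It was not picked in that way for the other genes, so the backgrounds in this paragraph are not a like comparison. The 5 controls other than control 2 lay wholly above the 6 model libraries for 26 of 52 members, against 5.07% of all genes tested, and with control 2 included this held for none. The place given here to the fit without control 2 was chosen after its values were seen. The count without it depended on single further libraries: it was 15 of 52 when control 3 was also left out (background 7.58%), 17 without control 5 (8.1%) or model 1 (9.86%), 18 without model 6 (9.92%), and 40 without model 2 (14.2%).

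**Figure D2:**
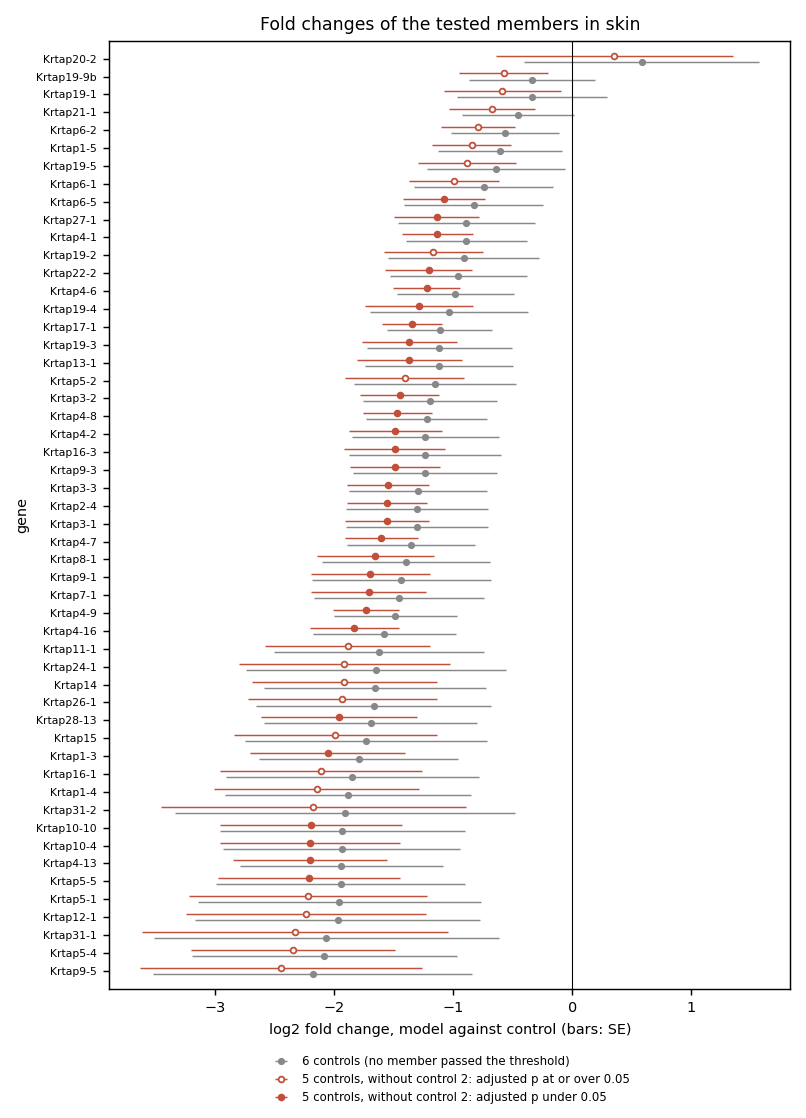
Log2 fold change of the 52 tested members, model against control, with bars of 1 SE: grey with all 6 controls, red with the 5 controls other than control 2 (filled where the edgeR adjusted p was under 0.05, which held for 29 members). All members but Krtap20-2 lie left of 0 in both fits, and the red points have shorter bars for all but Krtap20-2.

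Both groups held libraries that differed widely. Over all 6 controls the range was at least 5-fold for 52 of 52 members, and over the 6 model libraries for 43 of 52, including 3 with no count in model 4. With the lowest library of each group left out (control 2 and model 4), it was at least 5-fold for 4 members in the controls and 21 in the model. Over the 5 controls other than control 2 the highest library was under 2-fold above the lowest for 34 of 52 members, with a median of 1.74-fold. Model 4 was the lowest model library for 51 of 52 members. Model 2 was the highest for 40, and model 5 for the other 12. Those 12 were 8 high glycine-tyrosine members (Krtap6-1, Krtap6-2, Krtap6-5, Krtap19-1, Krtap19-5, Krtap19-9b, Krtap20-2 and Krtap21-1) with Krtap1-5, Krtap4-1, Krtap4-6 and Krtap5-2.

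**Figure D3:**
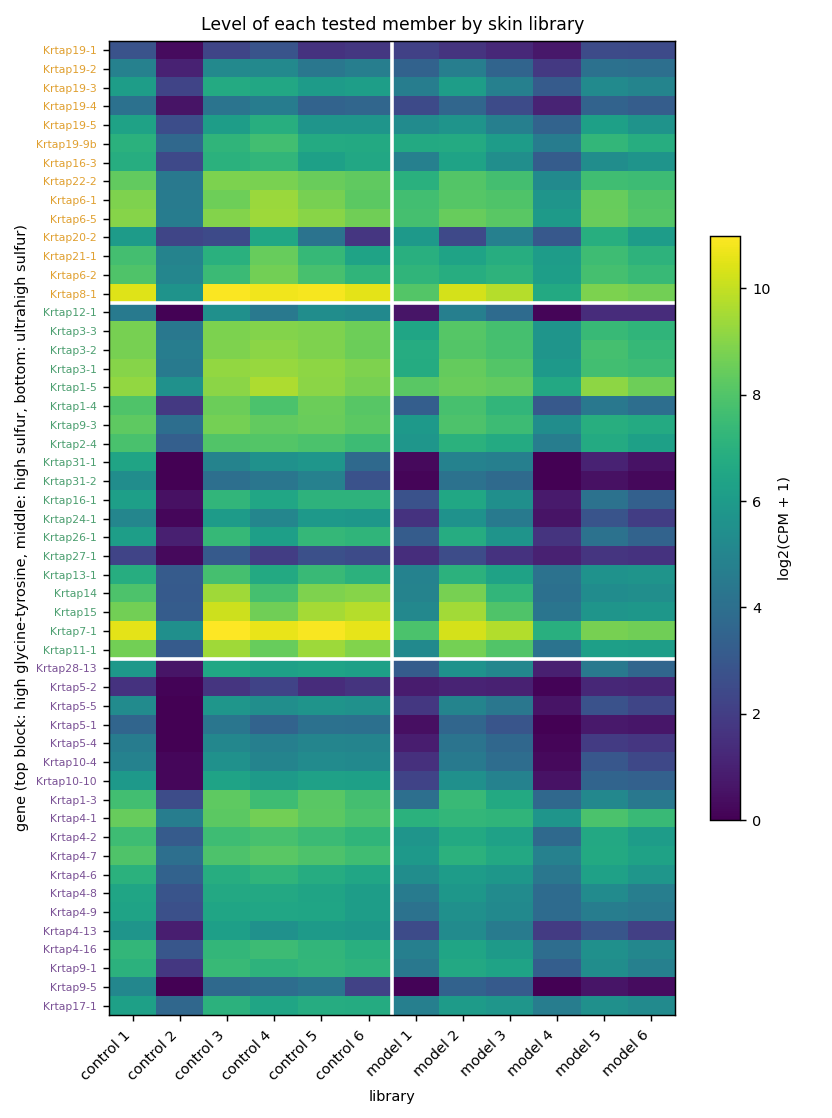
Level of each of the 52 tested members (rows, grouped by protein class) in the 12 skin libraries (columns), as log2(CPM + 1). Control 2 and model 4 are the dark columns in most rows, and Krtap8-1 and Krtap7-1 are the brightest rows.

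The family's RNA was concentrated in a few members. By mean TPM over the 12 skin libraries the first 2 of the 54 genes, Krtap8-1 and Krtap7-1, held 30.2% of the family's TPM and the first 8 held 58.8%. Krtap8-1 (high glycine-tyrosine, 61 residues) had a mean of 3561 TPM and Krtap7-1 3348 TPM, and 33 members had at least 100 TPM.

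Krtap8-1, whose promoter is shown above, had 48.5 CPM in control 2, a median of 1619 CPM and a highest value of 1941 CPM in the controls. In the model its lowest was 101 CPM, its median 426 CPM and its highest 1248 CPM. Apart from control 2, every control (1424 CPM or more) was above every model library. Its log2 fold change was -1.40 ± 0.707 (SE, adjusted p = 0.179, edgeR), and -1.65 ± 0.492 without control 2 (adjusted p = 0.0258).

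Krtap7-1 had nearly the same profile. Its controls ran from 43.9 CPM (control 2) over a median of 1573 to 2037 CPM, and its model libraries from 120 over a median of 407 to 1239 CPM. The log2 fold change was -1.45 ± 0.712 (SE, adjusted p = 0.166, edgeR), and -1.71 ± 0.483 without control 2 (adjusted p = 0.0207). Krtap7-1 is the member next to Krtap8-1 on chromosome 16.

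Of the other 6 genes with the highest TPM, Krtap22-2, Krtap6-5 and Krtap6-1 are high glycine-tyrosine members, and Krtap3-1, Krtap15 and Krtap1-5 are high sulfur members. Krtap22-2 had a mean of 318 ± 157 CPM in the controls and 169 ± 77.9 CPM in the model (SD, n = 6 each). Krtap3-1 had 460 ± 222 CPM and 193 ± 102 CPM. Both fell without control 2, with log2 fold changes of -1.21 and -1.55 (edgeR adjusted p = 0.0282 and 0.00778), and neither passed with it. Krtap6-1 and Krtap1-5 passed in neither fit. Krtap1-5 had 494 ± 250 CPM in the controls and 334 ± 147 CPM in the model, and its highest model library, model 5, had 553 CPM, above 4 of the 6 controls.

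The smallest p-values belonged to moderately expressed members, most of them of the Krtap4 family, ultrahigh sulfur proteins of the hair cortex. Krtap4-9, with the smallest, had 5.38 CPM in control 2 and 68.4 to 90.1 CPM in the other controls, with a median of 84.8 over all 6. Its model libraries ran from 13.5 over a median of 22.4 to 45.1 CPM, so that apart from control 2 no model library reached a control. The log2 fold change was -1.48 ± 0.518 (SE, adjusted p = 0.0621, edgeR), and -1.73 ± 0.275 without control 2 (adjusted p = 0.00147).

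Krtap4-16 ran from 6.74 over 152 to 183 CPM in the controls (lowest, median, highest) and from 14.3 over 39.1 to 86.0 CPM in the model. Krtap4-7 ran from 14.9 over 240 to 292 CPM and from 27.7 over 89.0 to 132 CPM. Krtap17-1, another ultrahigh sulfur member, ran from 11.7 over 97.3 to 133 CPM and from 24.1 over 41.1 to 64.9 CPM. In all 3 the controls other than control 2 lay above every model library. Their edgeR adjusted p-values were 0.0835, 0.0939 and 0.0951, and without control 2 they were 0.00466, 0.00363 and 0.00341.

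Krtap4-8, Krtap4-13, Krtap3-3 and Krtap2-4 completed the 8 smallest p-values. Their log2 fold changes were -1.22, -1.94, -1.29 and -1.30, with edgeR adjusted p-values from 0.108 to 0.140, and all 4 fell without control 2. Krtap4-13 had the lowest counts of them: 0.875 CPM in control 2, between 45.6 and 73.3 CPM in the other controls, and between 2.72 and 38.3 CPM in the model.

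In the Krtap3 and Krtap4 families every member passed once control 2 was left out. All 8 Krtap4 members and all 3 Krtap3 members fell without control 2 (edgeR adjusted p from 0.00147 to 0.0246 for Krtap4 and from 0.00707 to 0.00825 for Krtap3). In that fit 12.8% of all genes tested were called lower. With control 2 none passed, and their median log2 fold changes were -1.29 for both. Krtap3 proteins are high sulfur proteins of the cortex. Summed over its members, Krtap4 had a mean of 1048 CPM in the controls and 467 CPM in the model, and Krtap3 had 1214 and 521 CPM.

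The Krtap5, Krtap10 and Krtap12 families code for cysteine-rich proteins of the hair cuticle. Their median log2 fold changes were -1.95 for the 4 tested Krtap5 members, -1.93 for the 2 Krtap10 members and -1.97 for Krtap12-1. Such medians were not particular to them, with -1.99 for the Krtap31 family and -1.79 for the Krtap1 family. The families were not tested against each other. Krtap10-10, for example, had 0.128 CPM in control 2 and 60.3 to 82.0 CPM in the other controls, and 0.441 CPM in model 4 to 45.1 CPM in model 2. Krtap12-1 had 0.110 CPM in model 4 and 26.1 CPM in model 2. The range over the model libraries differed widely among the Krtap genes as a whole, and was 2.70-fold for Krtap17-1. Without control 2, both Krtap10 members and 1 of 4 Krtap5 members, Krtap5-5, passed as lower (all genes tested: 12.8%). Krtap5-4 did not pass (log2 fold change -2.35 ± 0.858, SE, adjusted p = 0.0572, edgeR). It had no count in control 2, 23.2 to 33.5 CPM in the other 5 controls, and 0.110 to 17.8 CPM in the model.

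Krtap19 and Krtap6 are families of high glycine-tyrosine proteins, and their difference from the other families was not tested. The 6 Krtap19 members had a median log2 fold change of -0.78 and the 3 Krtap6 members -0.74. Without control 2, 2 of 6 and 1 of 3 passed as lower (all genes tested: 12.8%). Krtap19-9b, one of the 2 members with the highest log2 fold changes under the rule for naming, had 12.02 CPM in control 2 and between 100.1 and 199.4 CPM in the other controls. In the model it had 23.8 CPM in model 4 and between 65.5 and 152 CPM in the other libraries. These values overlapped (log2 fold change -0.34 ± 0.531, SE, adjusted p = 0.686, edgeR).

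Taken by protein class, the median log2 fold change was -0.78 over the 14 high glycine-tyrosine members (13 with a lower mean), -1.63 over the 19 tested high sulfur members and -1.58 over the 19 tested ultrahigh sulfur members (all with a lower mean). Without control 2, 6 of 14, 8 of 19 and 15 of 19 passed as lower (all genes tested: 12.8%). The classes were not tested against each other. With limits of 25% cysteine and 30% glycine plus tyrosine, 7 high sulfur members moved to the ultrahigh sulfur class, and the medians became -1.54 for high sulfur and -1.63 for ultrahigh sulfur.

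Within the family's counts, the high glycine-tyrosine members made up 32.4% ± 5.16 in the controls and 39.2% ± 6.59 in the model (SD, n = 6 each). The ranges overlapped, at 27.8% to 39.9% and 29.8% to 46.7%. The high sulfur members made up 51.3% ± 6.26 and 45.8% ± 7.16, and the ultrahigh sulfur members 16.3% ± 1.28 and 15.01% ± 1.28. Control 2, the library with the fewest Krtap counts, had the highest glycine-tyrosine share of the controls, and model 2, with the most Krtap counts in the model, had the lowest share of the model libraries. Other libraries broke this order. Model 4, with the fewest Krtap counts in the model, had 38.2%, below models 1, 5 and 6 (43.5% to 46.7%). Control 6 had 1.12% of its counts on the family, the least after control 2, and the lowest glycine-tyrosine share of the controls (27.8%).

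By place in the genome, the median log2 fold change was -0.996 for the 22 tested members of the chromosome 16 cluster and -1.33 for the 22 on chromosome 11. It was -1.95 for 4 on chromosome 7 and -1.94 for 3 on chromosome 10, and -1.69 for Krtap28-13. Without control 2, 9, 16, 1, 2 and 1 of these members passed as lower, in the same order (all genes tested: 12.8%).

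Some members departed from the common profile. Krtap20-2, a glycine-tyrosine member of 60 residues, had 63.7, 92.0 and 17.3 CPM in controls 1, 4 and 5, but only 3.93, 4.55 and 2.33 CPM in controls 2, 3 and 6. In the model it had 4.404 CPM at the lowest (model 2), a median of 42.6 CPM and 118 CPM at the highest (model 5). The groups overlapped over nearly their whole range, and the log2 fold change was 0.58 ± 0.987 (SE, adjusted p = 0.707, edgeR). Control 3, the library with the largest Krtap share, was thus among the lowest for this gene, and model 2, the highest model library for 40 members, was the lowest model library for it.

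Krtap21-1 and Krtap6-2 lie next to Krtap20-2 among the members along chromosome 16. Krtap21-1 had its highest control value in control 4 (345 CPM) and its lowest outside control 2 in control 6 (83.1 CPM), and its highest model value in model 5 (191 CPM). Krtap6-2 followed the same order, with 403, 144 and 217 CPM in these libraries. Their 5 controls other than control 2 spanned 4.16-fold and 2.80-fold, against 39.6-fold for Krtap20-2. Neither passed the test, with or without control 2.

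The table also holds 11 protein-coding genes described as keratin-associated protein-like whose symbols begin with LOC, which the naming rule leaves out. Of the 7 described as like Krtap20-2, LOC115488674 had 52.7 and 79.8 CPM in controls 1 and 4 against 0.272 and 0.477 CPM in controls 3 and 6. Among the model libraries, model 5 had 122 CPM and model 2 had 0.730 CPM. That is the profile of Krtap20-2, and near-identical copies may share reads with it, so the counts of this group are uncertain.

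The trio Krtap31-1, Krtap31-2 and Krtap9-5, adjacent on chromosome 11 with the promoters shown above, had another profile in the controls. Krtap31-1 had no count in control 2 or model 4. It had 83.7 CPM in control 1, 12.7 CPM in control 6 and 29.1 to 53.0 CPM in controls 3, 4 and 5. In the model it had 28.0 and 26.0 CPM in models 2 and 3 but 0.212, 1.05 and 0.465 CPM in models 1, 5 and 6. Krtap31-2 and Krtap9-5 ranked the libraries alike at the extremes, with 41.2 and 32.6 CPM in control 1, their highest, and 5.78 and 3.50 CPM in control 6. These 3 were the only tested members with their highest control value in control 1. Krtap9-5 had the lowest log2 fold change of the family, -2.18 ± 1.34 (SE, adjusted p = 0.265, edgeR), and none of the 3 passed with or without control 2.

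Krtap14 and Krtap15, high sulfur neighbours on chromosome 16, were highest in control 3 and model 2. These peaks were common: control 3 was the highest control for 25 of 52 tested members and model 2 the highest model library for 40. Krtap15 had 1136 and 871 CPM in controls 3 and 6, 394 to 739 CPM in controls 1, 4 and 5, and 8.07 CPM in control 2. The model values were 704 CPM in model 2, 253 CPM in model 3 and 18.2 to 55.8 CPM in the other 4. Krtap14 had 681 and 512 CPM in controls 3 and 6, and 422 CPM in model 2. The log2 fold changes were -1.73 ± 1.01 for Krtap15 and -1.65 ± 0.932 for Krtap14 (SE, edgeR adjusted p = 0.243 and 0.224), and neither passed without control 2.

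**Figure D4:**
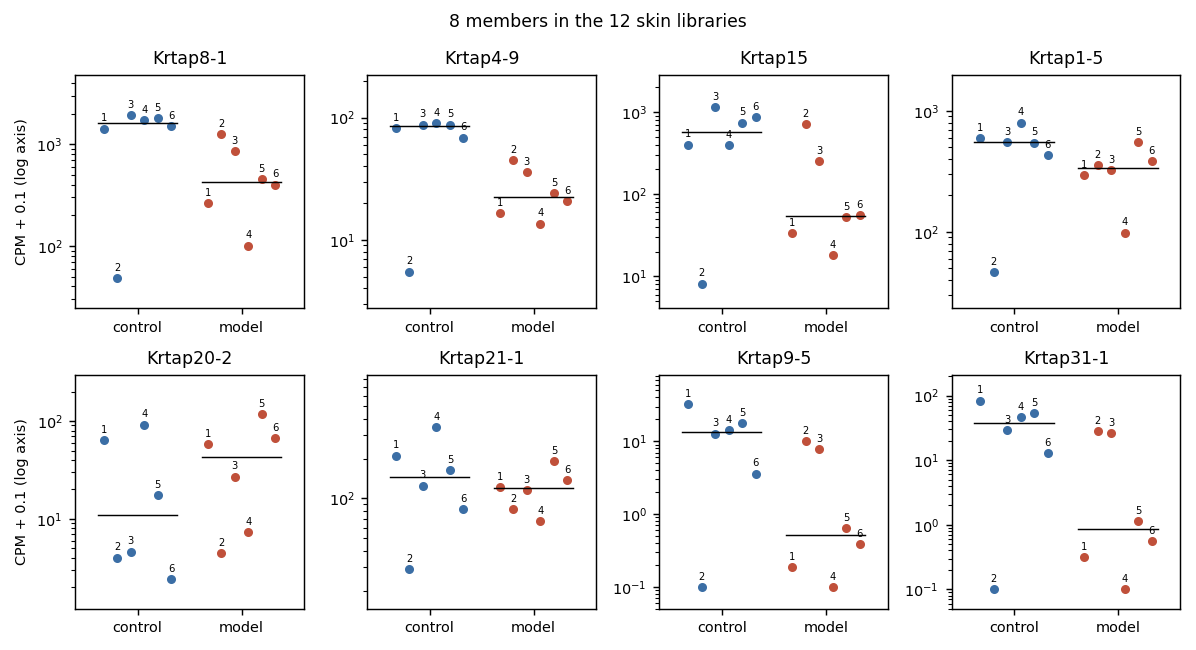
CPM + 0.1 (log axis) of 8 members in the 6 control (blue) and 6 model (red) skin libraries, with the library number over each point and a line at the group's median. Control 2 is the lowest control for all but Krtap20-2, and the order of the other libraries differs between Krtap15, Krtap20-2 and Krtap31-1.

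Some members are so alike that the authors' counting could have divided or shared their reads. The coding sequences of Krtap3-2 and Krtap3-3 were 100% identical, those of Krtap31-1 and Krtap31-2 98.9%, of Krtap6-1 and Krtap6-5 97.9% and of Krtap4-1 and Krtap4-2 95.7%. Pairs among Krtap16-3, Krtap19-1 and Krtap19-3, and Krtap10-4 with Krtap10-10, were 90.0% to 90.9% identical. The split of counts within each of these groups is uncertain.

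Summed, the keratins that these proteins surround were lower in the same libraries. The 15 hair shaft keratin genes in the table summed to 465 CPM in control 2, 6100 to 8656 CPM in the other controls and 1046 to 4892 CPM in the model. With control 2 none of the 15 passed, 3 had an unadjusted p under 0.05 (1 lower, 2 higher), and DESeq2 called 2 higher and none lower. Without control 2 9 fell and 2 rose (all genes tested: 12.8% lower, and 3724 of 19911 higher). The list's median log2 fold change was -1.56 with control 2 and -1.82 without. Krt31, a cortex keratin, had 381 ± 202 CPM in the controls and 128 ± 116 CPM in the model (SD, n = 6 each; log2 fold change -1.63, adjusted p = 0.179, edgeR), and fell without control 2 (adjusted p = 0.0306). Krt84 and Krt36, hair-type keratins also made in the tongue, went the other way: their log2 fold changes were 1.18 and 1.22 (adjusted p = 0.0532 and 0.0977), and both rose without control 2 (adjusted p = 0.0286 and 0.0102). Both were also highest of the controls in control 2. Krt84 had 201.5 CPM there, against 71.6 to 169.5 in the other controls, and Krt36 had 120.9 CPM, against 26.3 to 39.7.

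The ratio of Krtap counts to hair shaft keratin counts overlapped between the groups. It was 1.12 in control 2 and 1.69 to 1.98 in the other controls, with a mean of 1.69 ± 0.299 (SD, n = 6). In the model it was 1.95 ± 0.546 (SD, n = 6), from 1.13 in model 4 to 2.60 in model 1. On the deposited TPM the ratio was 4.26 ± 0.611 and 5.27 ± 1.58 (SD, n = 6 each). The lowest ratio of each group was in the library with the fewest Krtap counts of that group. Much of the keratin sum in these libraries came from Krt36 and Krt84. In control 2 they had 120.9 and 201.5 of 465 CPM, and in model 4 they had 222.7 and 407.4 of 1046 CPM. The lowest ratios thus depend on counting these genes among the hair shaft keratins.

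**Figure D5:**
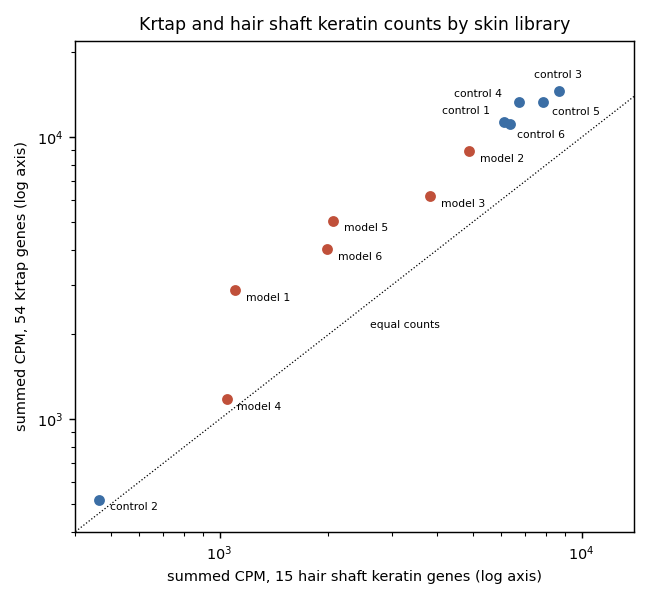
Summed CPM of the 54 Krtap genes against summed CPM of the 15 hair shaft keratin genes in the 6 control (blue) and 6 model (red) skin libraries, both axes log; the dotted line marks equal counts. The 5 controls other than control 2 sit at the upper right, the model libraries below them, and control 2 at the lower left, with ratios of 1.12 to 2.60.

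The lists of hair shaft regulators, inner root sheath genes and cross-linking and adhesion genes lay lower in the model as well. The list of hair follicle stem cell genes, given below, did not. Among all genes tested, 5.82% were called lower with all libraries and 12.8% without control 2. Of 13 regulators of hair shaft formation, 3 fell with all libraries, Bmpr1a, Bmp4 and Ovol1 (edgeR adjusted p = 0.00685, 0.0199 and 0.0375), and 11 fell without control 2. With all libraries 11 had an unadjusted p under 0.05 (all genes, lower: 15.1%) and DESeq2 called 11 lower (all genes: 7.11%). Hoxc13 and Foxn1, transcription factors that switch on hair keratin genes, had log2 fold changes of -1.10 and -1.27 (adjusted p = 0.0812 and 0.0675) and fell without control 2. Of 10 inner root sheath genes, which code for the sleeve around the growing shaft, 1 fell with all libraries, the regulator Gata3 (log2 fold change -0.76, adjusted p = 0.0116), and 5 fell without control 2. With all libraries 4 of these 10 had an unadjusted p under 0.05, all lower, and DESeq2 called 2 lower. Of 10 hair shaft cross-linking and adhesion genes none passed with control 2 (3 at an unadjusted p under 0.05, and 2 called lower by DESeq2), and 7 fell without it. The smallest p-values there were those of Tgm3 and Tgm1, transglutaminases, and Padi1, a peptidylarginine deiminase (adjusted p = 0.0545, 0.0547 and 0.124).

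Lists from other parts of the skin were read in the same fits. The shares of all genes called lower were again 5.82% and, without control 2, 12.8%. Without control 2, 3724 of 19911 genes were called higher. Of 10 interfollicular epidermis genes 1 fell, Ivl, the cornified envelope protein involucrin (log2 fold change -0.83, adjusted p = 0.0427, edgeR), and the list's median was -0.15. Without control 2 the count was again 1 lower, and the median was 0.24. Krt14, of the basal layer, had 3927 ± 877 CPM in the controls and 3522 ± 1198 CPM in the model (SD, n = 6 each, adjusted p = 0.567). Of 8 hair follicle stem cell genes 1 fell with all libraries, Lhx2. The list's median log2 fold change was -0.07 with all libraries and 0.11 without control 2. Without control 2, 2 fell (Lhx2 and Tbx1) and 2 rose (Cd34 and Nfatc1). None of 8 proliferation genes passed with or without control 2, and with all libraries none had an unadjusted p under 0.05 (0 called by DESeq2). Of the melanocyte genes, 5 of 9 tested fell with all libraries and 8 of 10 tested without control 2, with median log2 fold changes of -2.74 and -3.03. All listed genes but Mitf and Sox10 had their 3 highest values of the 12 libraries in controls 3, 5 and 6: Pmel, a melanosome protein, had 103, 43.8 and 184 CPM there, 5.13 to 10.3 CPM in controls 1, 2 and 4, and 3.51 to 18.6 CPM in the model.

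Several marker lists of other cells moved with the group, and their part in the Krtap result was not tested. Among all genes tested, 2755 of 19526 were called higher with all libraries and 3724 of 19911 without control 2. Of 8 leukocyte genes 5 rose (6 without control 2), and their summed level was 69.99 to 350 CPM in the controls and 219 to 880 CPM in the model. All 5 adipocyte genes rose, with and without control 2, from 1038 to 1243 CPM in the controls to 1219 to 9175 CPM in the model. Of 6 fibroblast genes 3 rose with all libraries and 6 without control 2. They summed to 9556 CPM in control 2, 4484 to 7814 CPM in the other 5 controls and 9420 to 16988 CPM in the model. None of 8 skeletal muscle genes passed with or without control 2 (1 at an unadjusted p under 0.05, 0 by DESeq2, with all libraries), with 2989 to 11209 CPM in the controls and 1218 to 11932 CPM in the model.

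Krtap RNA was nearly missing from DRG, a tissue without hair follicles. The 12 DRG libraries, of 47801198 to 68396846 counts each, together held 46 counts on the 54 genes among 691182986, with 31 in the controls and 15 in the model. At most 10 counts came from 1 library, at most 3 on 1 gene in a library, and 13 members had any count. No member passed the filter on low counts, so none was tested in this tissue. The hair shaft keratins summed to at most 0.238 CPM in a DRG library, whereas the sensory neuron genes summed to 11544 to 16411 CPM.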

How the data were processed

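The members and the gene lists were chosen with earlier results of these data known. PolyA RNA of 24 samples was sequenced. Per the submitters' processing notes, bcl2fastq 2.20.0, Trimmomatic, HISAT2 2.1.0 and StringTie 2.1.3b were used with GRCm38/mm10. The counting of reads and its use of strand: not given in the sources used here. Per the file headers, the authors deposited for each gene and sample a read count, an FPKM value, which was not used, and a TPM value, corrected for gene length. Titles gave the groups. Counts were fitted as deposited in R 4.3.3 with edgeR 4.0.16 (filterByExpr, TMM, robust quasi-likelihood F test), separately for skin and DRG, on all genes that passed the filter, with Benjamini-Hochberg adjustment over them and 0.05 as the threshold. The script recovered 94.2% of 4-fold and 59.3% of 2-fold changes among 200 changed genes in data simulated on 19263 skin genes. The changed genes were drawn at random from all of these, and no simulated library stood apart as control 2 did. These rates therefore do not measure the power for the Krtap genes. DESeq2 1.42.0, limma 3.58.1 on log2(TPM + 1) and log2(TPM + 0.1), other scalings and filters, all libraries in 1 fit, a replicate block and leaving out each library were the alternatives. CPM are plain counts per 1000000, TMM serving only in the fits. SE is the absolute log2 fold change over the square root of F.

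Named were the 8 members with the highest mean TPM in skin, the 8 with the smallest p, the highest of each class and the 2 highest and 2 lowest log2 fold changes. The departing members (Krtap31-1, Krtap31-2, Krtap21-1, Krtap6-2), Krtap14, the family examples and the LOC genes were chosen after their values were seen. From each other list, up to 3 genes with the smallest p and Hoxc13, Foxn1, Krt31 and Krt14 were eligible. Protein composition was read from GENCODE M21 coding sequences in place of the RefSeq proteins planned. Gene positions are from RefSeq. No 2 replicates were duplicates: over 60 pairs the lowest chi-square per gene was 8.48.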

Additional observations from a re-analysis of the deposited data

Results flagged for a closer look

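Skin control 2 stood apart from the other 5 controls for 11 of the 21 named members, for the family's share of counts and for its ratio to the hair shaft keratins: its gap to the next control was a larger part of the whole range of the 6 than Dixon's critical value allows. Its values were 48.5 CPM for Krtap8-1, 43.9 for Krtap7-1, 20.9 for Krtap22-2, 22.2 for Krtap3-1, 5.38 for Krtap4-9, 6.74 for Krtap4-16, 14.9 for Krtap4-7, 6.30 for Krtap4-8, 20.4 for Krtap3-3, 9.01 for Krtap2-4 and 0 for Krtap5-4. Its share was 0.052% of all counts, and its ratio was 1.12 Krtap counts per keratin count. Krt36 and Krt84 had 120.9 and 201.5 of its 465 keratin CPM, so this ratio depends on counting them. Model 2 stood apart from the other model libraries for Krtap15, at 704 CPM. Of 46 groups examined in this way 14 were flagged, 13 of them at control 2. Chance flags about 1 in 20 groups, and these genes share the same libraries, so the flags are not independent of each other.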

How the results depend on the processing

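With all 12 skin libraries the count of called members was 0 in edgeR with RLE or upper-quartile factors, without the filter, with a filter of 1 CPM in 6 libraries, without the robust option, with a fold threshold, and in limma on log2(TPM + 1) and log2(TPM + 0.1). It was 5 with DESeq2 (7.11% of all genes called lower) and 4 with all 24 libraries in 1 fit (15.5%). Leaving out 1 library at a time gave 0 to 29, the 29 without control 2. Leaving out model 2 gave no call but 32 members lower at an unadjusted p under 0.05 (14.6% of all genes), against 9 with all libraries (15.1%). The median log2 fold change of the members ran from -1.55 (without control 2) to -0.96 (limma on TPM).

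Without control 2, the count of 29 of 52 (12.8% of all genes called lower) became 31 with RLE (14.5%) or upper-quartile factors (14.4%) and 44 with limma on log2(TPM + 1) (8.51%). Of 54 tested it was 24 without the filter (8.59%) and 40 with DESeq2 (10.8%). With a further library left out it ran from 15 to 40, against 7.58% to 14.8% of all genes. These settings were chosen after the data were seen.

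The difference in the family's share (model minus control) was -0.60 percentage points of counts and -1.75 points of TPM, and that in the ratio to hair shaft keratins was 0.26 on counts and 1.01 on TPM. Counting Krtap7-1 with the glycine-tyrosine members moved that class's median from -0.78 to -0.83. Of 1537 recomputed values of named genes, 1383 kept their direction and side of the threshold, 72 passed only in the alternative and 82 no longer passed.

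The replicate numbers of control and model samples did not pair them: the correlations of same-numbered samples were from -0.51 to 0.26, and no sample correlated best with its own number. With the replicate block 0 members were called, and 0 had an unadjusted p under 0.05. In DRG no member was called in any setting, the 13 members tested by DESeq2 or without the filter included, where at most 3 counts a library limit any comparison.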
